A study of Mus musculus with 14 samples.

Results

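The nuclear-encoded genes of oxidative phosphorylation (OXPHOS) were described here in single mouse cloned embryos at the 2-cell stage. Members were all genes whose symbol begins with Nduf, Uqcr, Atp5 or Cox4 to Cox8, together with Sdha, Sdhb, Sdhc, Sdhd and Cycs. This rule gave 94 of the 20242 genes with a symbol in the deposited values, and it used no measured value. It leaves out Cyc1, a subunit of complex III whose symbol has another beginning.

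The embryos were made by somatic cell nuclear transfer (SCNT) in the B6D2F1 strain, which places a somatic nucleus in an enucleated oocyte, and each library came from the total RNA of 1 whole embryo, collected at 28 h, which the labels count from nuclear transfer and the study's text from activation. All reconstructed oocytes were activated in strontium with cytochalasin B and cultured in medium with deionized bovine serum albumin, and these conditions were shared by the controls. Trichostatin A (TSA), a histone deacetylase inhibitor, was given at 50 nM during the first 8 h from the start of activation. Vitamin C (VC), a cofactor for iron-dependent dioxygenases and an antioxidant, was given at 10 µg/ml either over the first 8 h or from 8 to 15 h. There were 3 control embryos with neither agent, 1 VC(0-8h), 2 VC(8-15h), 3 TSA(0-8h), 2 TSA(0-8h)+VC(0-8h) and 3 TSA(0-8h)+VC(8-15h) embryos. Embryos of the sequential treatment, TSA(0-8h)+VC(8-15h), were from independent rounds of nuclear transfer. For the other groups the sources used here do not state this, so p-values there measure only the spread between these embryos.

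OXPHOS couples the oxidation of NADH and succinate to the synthesis of ATP in the mitochondrial inner membrane. Complex I takes electrons from NADH, complex II from succinate, and complex III passes them through the carrier cytochrome c to complex IV, which reduces oxygen. Complexes I, III and IV pump protons, and complex V, the ATP synthase, uses the gradient. Complexes I, III, IV and V also hold subunits encoded by mitochondrial DNA, which are not members here. The embryo inherits its mitochondria from the oocyte, and the 2-cell stage in the mouse is the time at which maternal RNA is cleared and the embryonic genome becomes broadly active.

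The values are RPKM, reads scaled to the length of the transcript and to the reads counted in the library, so levels may be compared between genes per length, but the RNA content of an embryo cannot be read from them. The reads counted per embryo, recovered from the steps between RPKM values, ran from 3021540 (TSA(0-8h) replicate 1) to 13589389 (control replicate 3). A gene of 1 kb with 3 reads would stand at 0.221 RPKM in the library with most reads and at 0.993 RPKM in the one with fewest. Oocyte markers were present in every embryo, with 12 to 15 of 15 genes above 0, and markers of the 2-cell stage with 7 to 14 of 14. The study's methods name cumulus cells, which surround the oocyte, as nuclear donors, with embryonic fibroblasts in a separate experiment on development. Of 15 markers of cumulus cells, 0 to 7 were above 0 and at most 2 reached 1 RPKM. The summed level of these markers ran from 0 to 69.0 RPKM. Cytosolic ribosomal protein genes, most of which every cell uses, were also listed at 0 in some embryos, and 29 of 88 were above 0 in all 14. The 88 were taken by symbol and include related forms such as Rpl3l, Rpl10l and Rpl39l. A value of 0 therefore says only that the gene was listed at 0 in that embryo.

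Most OXPHOS genes were recorded in a minority of the embryos. Of the 94 members, 81 were above 0 in at least 1 embryo and 30 in at least 7 of 14. Only Atp5a1, Atp5b, Ndufa9 and Ndufb11 were above 0 in all 14, and only Atp5a1 and Atp5b reached 1 RPKM in all 14. A further 13 members were seen in a single embryo, and 13 were listed at 0 throughout: Ndufa1, Ndufa3, Ndufa5, Ndufa7, Ndufb7, Ndufb8, Ndufc1 and Ndufs5 of complex I, Uqcrh of complex III, Cox8b, Cox8c and Ndufa4l2 of complex IV, and Atp5mpl of complex V. Across all pairs of a gene and an embryo, 37.1% were above 0 for the members, compared with 41.1% for all genes, 74.8% for ribosomal protein genes and 64.3% for the 13 enzymes and subunits of the tricarboxylic acid cycle.

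**Figure D1:**
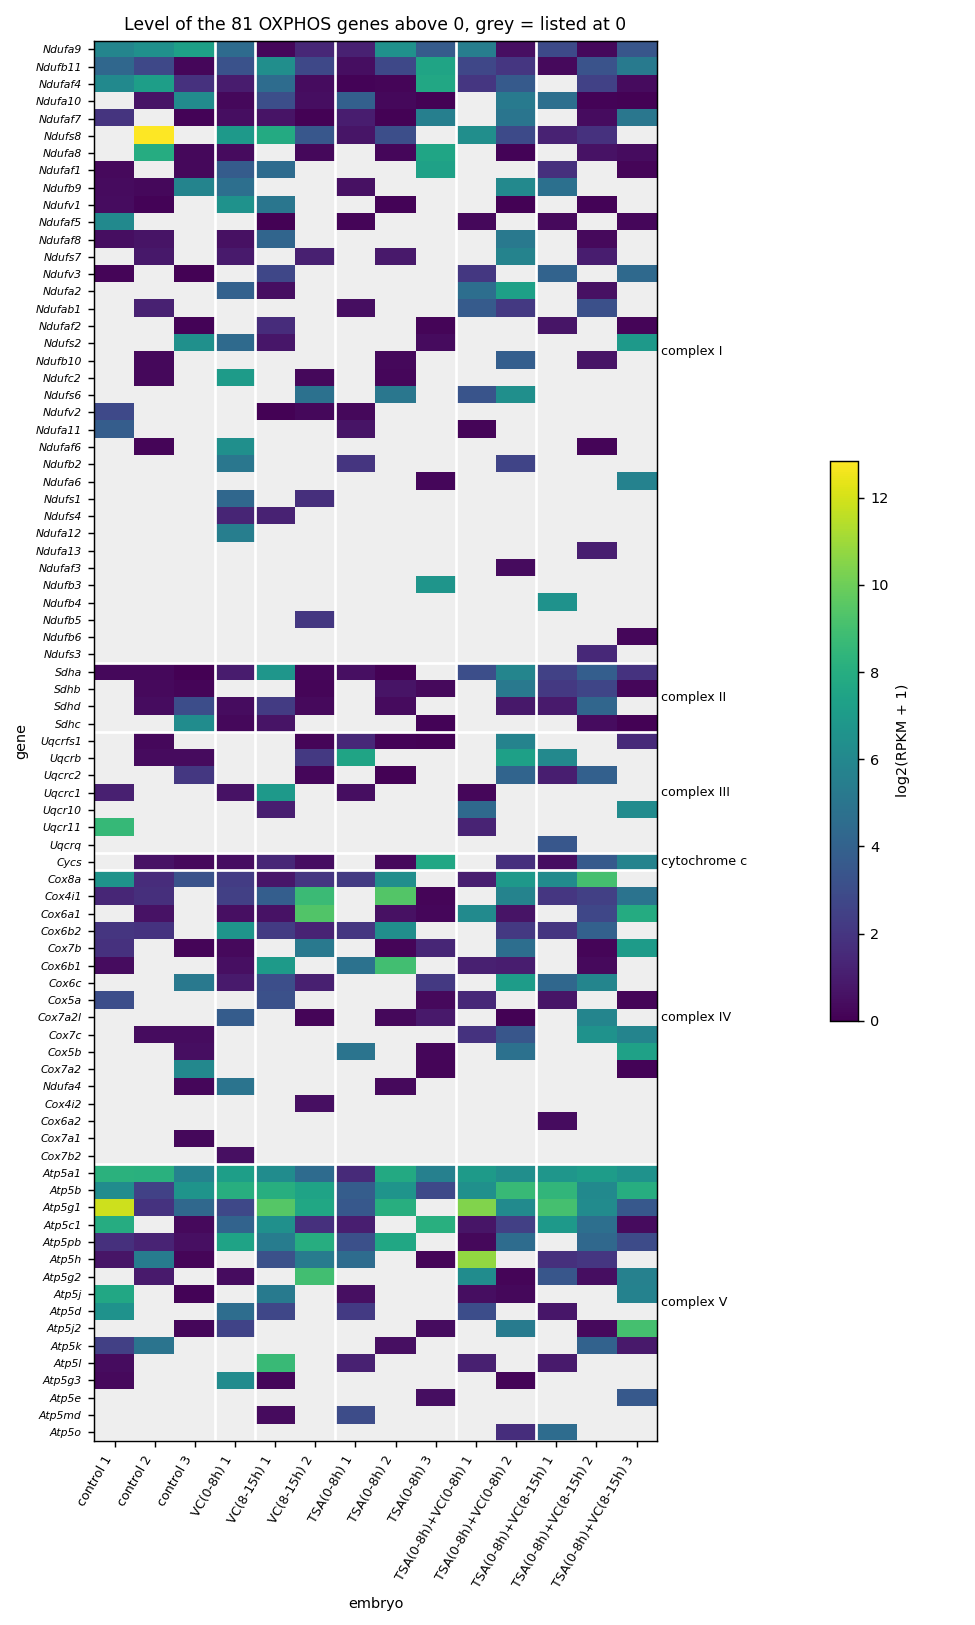
Level of the 81 members above 0 in any embryo (rows, by complex and then by the number of embryos above 0) in each of the 14 embryos (columns, by treatment), as log2(RPKM+1) in colour and with values listed at 0 in grey. Complex V holds the 2 rows that are coloured and at 1 RPKM or more in every embryo, Atp5a1 and Atp5b, while most rows hold a few high values among grey cells.

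Detection differed between the parts of the chain. The 5 subunits of the catalytic F1 head of ATP synthase were above 0 in a median of 12 embryos, the 4 subunits of complex II in 9 and cytochrome c in 11. Complex IV was seen unevenly, with a median of 7 embryos for its 12 broadly expressed subunits and 1 embryo for its 8 tissue-restricted isoforms. The 7 core subunits of complex I, which carry its flavin and iron-sulphur centres, had a median of 5, its 8 assembly factors 6 and its 29 accessory subunits 2. For the 8 complex III genes the median was 4 embryos, and for the 12 Fo and stalk subunits of complex V it was 5.5.

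Members seen in few embryos were also short. The median length of the longest annotated transcript was 1214.5 nt for members above 0 in at least 7 embryos, 780 nt for those in 1 to 6 and 547 nt for those listed at 0, compared with 2547 nt over all genes. Ribosomal protein genes, with a median of 864.5 nt, were as short but were detected more often. Under 600 nt, 24.4% of member pairs and 56.1% of ribosomal protein pairs were above 0, while at 2000 nt or more the shares were 57.1% and 83.7%. In each of the 4 length classes the members' share was above that of all genes, at 10.3% and 53.6% in the shortest and the longest class.

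**Figure D2:**
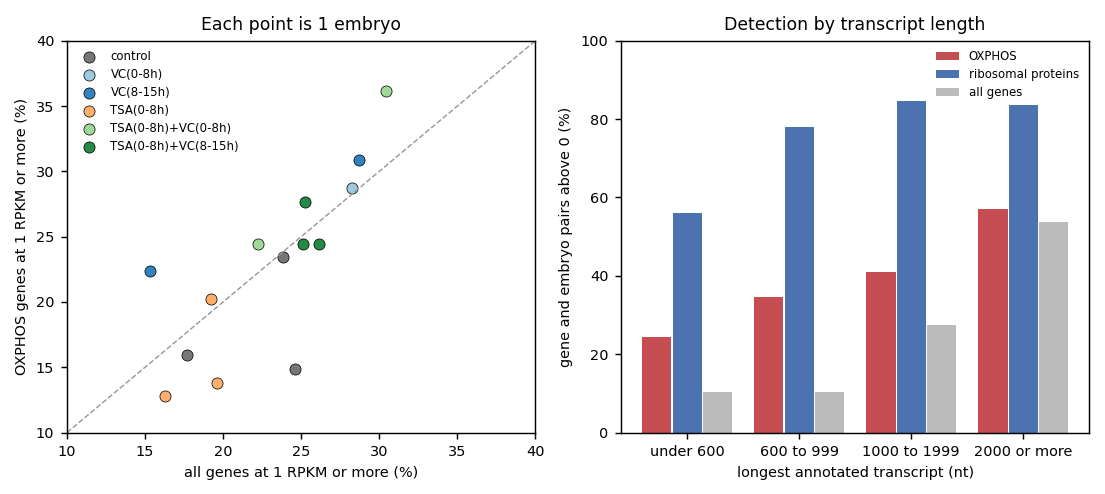
Left, percentage of the 94 OXPHOS genes against the percentage of all genes at 1 RPKM or more, 1 point per embryo coloured by treatment, with the line of equal percentages dashed. Right, percentage of gene and embryo pairs above 0 by transcript length (nt) for OXPHOS, ribosomal protein and all genes. The embryos run from 12.8% to 36.2% of OXPHOS genes and lie on both sides of the line. Control replicate 3 is below it, at 14.9% against 24.6% of all genes, and VC(8-15h) replicate 2 above it, at 22.3% against 15.3%. OXPHOS bars stand below ribosomal protein bars in all 4 length classes.

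In each embryo 29 to 44 members were above 0 and 12 to 34 were at 1 RPKM or more. The number at 1 RPKM or more was 22, 15 and 14 in control embryos, 27 in the VC(0-8h) embryo and 29 and 21 with VC(8-15h). It was 19, 12 and 13 with TSA(0-8h), 23 and 34 with TSA(0-8h)+VC(0-8h) and 23, 26 and 23 with TSA(0-8h)+VC(8-15h). The TSA(0-8h)+VC(8-15h) embryos were thus all above the TSA(0-8h) embryos and the control embryos, and the TSA(0-8h) embryos overlapped the controls. The share of all genes at 1 RPKM or more moved alike, at 25.1% to 26.1% with TSA(0-8h)+VC(8-15h), 16.3% to 19.6% with TSA(0-8h) and 17.7% to 24.6% in controls, and its part in the members' numbers was not tested. Over the 14 embryos the number of members at 1 RPKM or more ranked with the number of all genes at that level (Spearman's rho = 0.83) and not with the reads counted (rho = -0.06). These coefficients are descriptions over embryos that share treatments.

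The members that were high in one embryo were seldom high in another. Of the 81 members above 0, 66 (81.5%) had more than 50% of their summed level in a single embryo, compared with 61.4% of all genes above 0. The median share in the leading embryo was 78.2% for members, 60.2% for all genes and 47.0% for ribosomal protein genes. Among the 30 members above 0 in at least 7 embryos, the median pairwise Spearman coefficient over the 14 embryos was 0.04, and among 70 ribosomal protein genes it was 0.08.

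The summed level of the members therefore followed a few genes. It was 5347, 8236 and 739 RPKM in control embryos, 1505 RPKM with VC(0-8h), and 2434 and 2370 RPKM with VC(8-15h). It was 337, 2261 and 1447 RPKM with TSA(0-8h), 3722 and 1809 RPKM with TSA(0-8h)+VC(0-8h), and 1495, 1203 and 2037 RPKM with TSA(0-8h)+VC(8-15h). Controls thus held both the highest and one of the lowest sums, and the 3 groups of 3 embryos overlapped. The VC(8-15h) sums lay above those of TSA(0-8h) and of TSA(0-8h)+VC(8-15h).

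Single genes set these sums. In control replicate 2, Ndufs8, a core subunit of complex I that holds iron-sulphur clusters, stood at 7370 RPKM, 89.5% of the sum and rank 2 among all genes of that embryo. In control replicate 1, Atp5g1, one of 3 genes for the c subunit of the ATP synthase rotor, stood at 3690 RPKM and made up 69.0%. Atp5h, a stalk subunit of ATP synthase, took 47.3% in TSA(0-8h)+VC(0-8h) replicate 1, and Uqcrb, a small complex III subunit, 53.2% in TSA(0-8h) replicate 1.

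The log2 ratio of the mean sums was -1.60 for TSA(0-8h)+VC(8-15h) against control, -1.82 for TSA(0-8h) against control and 0.23 for TSA(0-8h)+VC(8-15h) against TSA(0-8h). These ratios were not tested. The sums were 4774 ± 3781 RPKM (SD, n = 3) in controls, 1348 ± 966 RPKM (SD, n = 3) with TSA(0-8h) and 1578 ± 423 RPKM (SD, n = 3) with TSA(0-8h)+VC(8-15h), so that the difference from the control mean was smaller than the SD of the controls. When each gene was given equal weight, as the mean of log2(RPKM+1) over the 94 members, the first difference was 0.27 and the second -0.14.

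**Figure D3:**
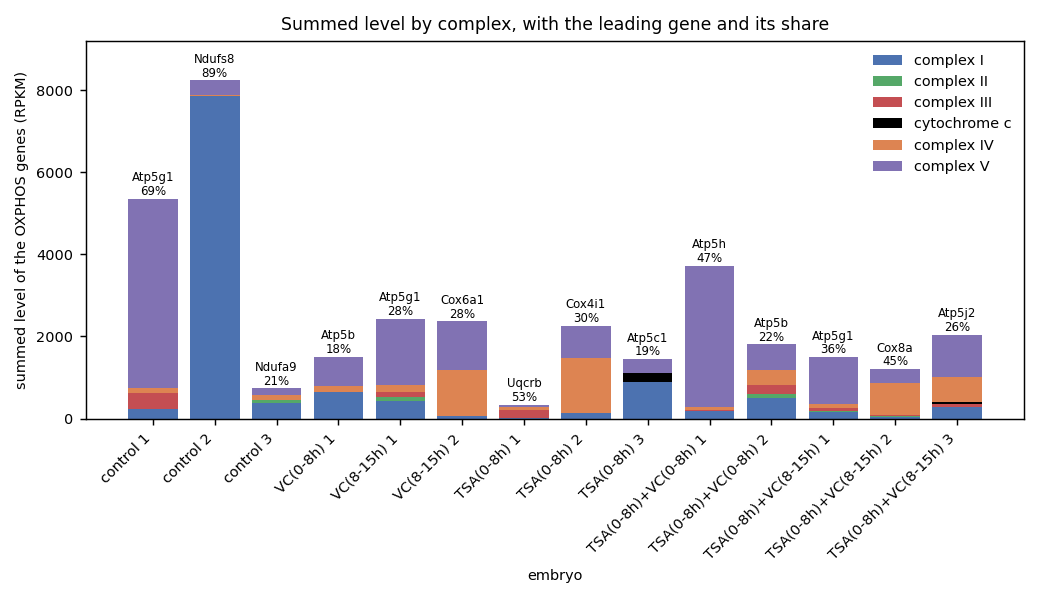
Summed level of the 94 members (RPKM) in each embryo, stacked by complex, with the leading gene and its share of the sum printed above each bar. The bars run from 337 RPKM in TSA(0-8h) replicate 1 to 8236 RPKM in control replicate 2, and Ndufs8 alone makes up 89.5% of the tallest.

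Complex I was represented by a small set of genes. Ndufa9, an accessory subunit at the junction of the 2 arms (mm9 chr6:126771881-126799162, minus strand), was at 55.8, 86.8 and 156 RPKM in control embryos, 21.1 RPKM with VC(0-8h), and 0.153 and 1.73 RPKM with VC(8-15h). It was at 1.25, 88.4 and 12.0 RPKM with TSA(0-8h), 43.4 and 0.462 RPKM with TSA(0-8h)+VC(0-8h) and 6.44, 0.195 and 9.67 RPKM with TSA(0-8h)+VC(8-15h). All 3 controls were thus above all embryos that had received VC.

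Ndufs8 was listed at 0 in the other 2 control embryos, and was at 123 RPKM with VC(0-8h), 228 and 10.3 RPKM with VC(8-15h), and 80.0 and 6.32 RPKM with TSA(0-8h)+VC(0-8h). With TSA(0-8h) it stood at 0.645, 7.54 and 0 RPKM and with TSA(0-8h)+VC(8-15h) at 1.34, 2.53 and 0 RPKM. Its level is the sum of 3 transcript entries, and how reads common to entries were counted is not stated, so the sum may count a read more than once. Ndufa8, another accessory subunit, reached 245 RPKM in control replicate 2 and 187 RPKM in TSA(0-8h) replicate 3 and stayed at or below 0.522 RPKM elsewhere.

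Among the complex I assembly factors, Ndufaf4 was at 68.1, 148 and 2.55 RPKM in controls, at 0.0911, 0.141 and 206 RPKM with TSA(0-8h) and at 0, 4.57 and 0.292 RPKM with TSA(0-8h)+VC(8-15h). Ndufaf1 reached 163 RPKM in TSA(0-8h) replicate 3, where 81.5% of its summed level lay. Ndufaf7, a methyltransferase that acts on a complex I subunit, was above 30 RPKM in 3 embryos of different groups. Ndufb11, an X-linked accessory subunit seen in all 14 embryos, ran from 0.173 to 183 RPKM. It overlaps exons of Rbm10 on the opposite strand, and since the strandedness of the libraries is not stated, reads of the 2 genes cannot be told apart.

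In complex II the catalytic flavoprotein subunit Sdha (mm9 chr13:74459702-74487728, minus strand) had the smallest adjusted p of any member in the pairwise comparisons. It was at 0.193, 0.204 and 0.0257 RPKM in controls and at 0.463, 0.0448 and 0 RPKM in the TSA(0-8h) embryos. The TSA(0-8h)+VC(8-15h) embryos had it at 4.51, 13.2 and 2.65 RPKM, and the TSA(0-8h)+VC(0-8h) embryos at 7.61 and 55.7 RPKM. With VC(8-15h) alone it was at 106 and 0.160 RPKM and with VC(0-8h) at 0.985 RPKM. Every embryo that received both agents was thus above every control and TSA(0-8h) embryo, whereas VC without TSA gave both high and low values.

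Behind these levels stood 3, 4 and 1 recovered reads in controls, 4, 1 and 0 with TSA(0-8h) and 56, 294 and 93 with TSA(0-8h)+VC(8-15h). The iron-sulphur subunit Sdhb was at 3.43, 5.40 and 0.152 RPKM with TSA(0-8h)+VC(8-15h), at 36.1 RPKM in TSA(0-8h)+VC(0-8h) replicate 2 and at or below 0.596 RPKM elsewhere. The membrane anchors went their own ways. Sdhc had 98.3% of its summed level in control replicate 3, at 74.9 RPKM, and Sdhd was highest in TSA(0-8h)+VC(8-15h) replicate 2, at 17.7 RPKM.

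In complex III, Uqcrb was above 1 RPKM in 4 embryos, at 180 RPKM in TSA(0-8h) replicate 1, 155 RPKM in TSA(0-8h)+VC(0-8h) replicate 2, 64.1 RPKM in TSA(0-8h)+VC(8-15h) replicate 1 and 3.33 RPKM in VC(8-15h) replicate 2. Uqcr11 was recorded almost only in control replicate 1, at 387 RPKM, and Uqcrc1, a core subunit, almost only in VC(8-15h) replicate 1, at 118 RPKM. The Rieske iron-sulphur protein Uqcrfs1 was above 0 in 7 embryos and highest at 52.1 RPKM in TSA(0-8h)+VC(0-8h) replicate 2. Cycs, the carrier to complex IV, was above 0 in 11 embryos but at 1 RPKM or more in 5. It was at 207 RPKM in TSA(0-8h) replicate 3, 52.4 and 11.6 RPKM in TSA(0-8h)+VC(8-15h) replicates 3 and 2, 2.45 RPKM in TSA(0-8h)+VC(0-8h) replicate 2 and 1.69 RPKM in VC(8-15h) replicate 1. No group held high values throughout for any of these genes.

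Complex IV has subunits with a broadly expressed form and one restricted to muscle, lung, testis or other tissues, and the broadly expressed form was seen in more embryos in 6 of 7 such sets. Cox4i1 was above 0 in 11 embryos and its partner Cox4i2 in 1, at 0.419 RPKM. Cox6a1 was above 0 in 10 and Cox6a2 in 1, Cox7b in 9 and Cox7b2 in 1, and Cox7a2 in 3 and Cox7a1 in 1. Cox8a was above 0 in 12, while Cox8b and Cox8c were listed at 0 in all, and Ndufa4, a complex IV subunit despite its symbol, was above 0 in 3 and Ndufa4l2 in none. The exception was the testis-type Cox6b2, which was above 0 in 10 embryos, at 1 RPKM or more in the same 10, and highest at 103 RPKM in the VC(0-8h) embryo, against 8 embryos for Cox6b1. As for Ndufs8, the level of Cox6b2 is a sum of transcript entries that may count a read more than once. In VC(8-15h) replicate 2 its entries were at 0.552 and 0.845 RPKM.

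Cox4i1 itself was at 1.63, 2.36 and 0 RPKM in controls, 0, 688 and 0.125 RPKM with TSA(0-8h) and 3.05, 4.36 and 29.1 RPKM with TSA(0-8h)+VC(8-15h). With VC(8-15h) it was at 13.3 and 425 RPKM, with VC(0-8h) at 4.49 RPKM and with TSA(0-8h)+VC(0-8h) at 0 and 52.9 RPKM. The highest single values thus came from a TSA(0-8h) embryo whose companions were low and a VC(8-15h) embryo whose companion was at 13.3 RPKM. Cox8a ran from 0 in 2 embryos to 537 RPKM in TSA(0-8h)+VC(8-15h) replicate 2, and Cox6a1 from 0 to 666 RPKM in VC(8-15h) replicate 2.

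Complex V held the only 2 members that reached 1 RPKM in every embryo, Atp5b and Atp5a1. Atp5b, the catalytic beta subunit (mm9 chr10:127520329-127527447, plus strand), was at 74.8, 4.57 and 98.8 RPKM in controls and at 13.0, 100.2 and 6.11 RPKM with TSA(0-8h). It was at 266 RPKM with VC(0-8h), 264 and 173 RPKM with VC(8-15h), 86.6 and 398 RPKM with TSA(0-8h)+VC(0-8h) and 351, 66.8 and 259 RPKM with TSA(0-8h)+VC(8-15h). Of the 8 embryos that received VC, 6 were above all 6 embryos that did not, and the other 2 lay within the range of the untreated and TSA(0-8h) embryos.

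Atp5a1, the alpha subunit that forms the F1 head with Atp5b, did not follow it. It was at 296, 286 and 51.2 RPKM in controls, 145 RPKM with VC(0-8h), 74.0 and 21.4 RPKM with VC(8-15h), 1.91, 220 and 47.0 RPKM with TSA(0-8h), 128 and 80.2 RPKM with TSA(0-8h)+VC(0-8h) and 105, 138 and 93.1 RPKM with TSA(0-8h)+VC(8-15h). Its lowest value lay in the shallowest library, where it rested on 14 reads.

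The 3 genes that encode the same mature c subunit differed widely. Atp5g1 was above 0 in 13 embryos with a highest value of 3690 RPKM, Atp5g2 in 8 with a highest value of 488 RPKM, and Atp5g3 in 4, with 99.3% of its summed level in the VC(0-8h) embryo. Atp5h was at 1759 RPKM in TSA(0-8h)+VC(0-8h) replicate 1 and at most 41.6 RPKM in the other embryos. Atp5pb, a stalk subunit, was at 175 RPKM with VC(0-8h), 257 RPKM in VC(8-15h) replicate 2 and 198 RPKM in TSA(0-8h) replicate 2. It overlaps Wdr77 on the opposite strand. Atp5k, Cycs, Atp5l and Uqcrh each have 2 to 4 annotated pseudogenes named after the gene, whose reads could be divided with it. Copies under other names were not counted, so more copies and other members may be concerned.

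The first comparison asked which genes the sequential treatment moved. Of 94 members, 8 had at least 1 RPKM in all 3 embryos of TSA(0-8h)+VC(8-15h) or of control and were tested with limma on log2(RPKM+1) together with 3297 genes in all. None was called at an adjusted p under 0.05, and the background was also 0% of all genes tested. At an unadjusted p under 0.05, 3 members passed, 1 higher and 2 lower, against a background of 17.7% of all genes tested, 14% higher and 3.76% lower. Groups did not overlap for 2 members that were higher (background 15.7%) and 1 that was lower (background 5.7%). The median log2 difference was 0.73 over the 8 members and 0.78 over all genes tested.

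Sdha was higher with TSA(0-8h)+VC(8-15h) by 2.53 ± 0.80 on the log2(RPKM+1) scale (SE; limma adjusted p = 0.111) and Cox4i1 by 2.07 ± 1.15 (adjusted p = 0.379). Ndufa9 differed by -4.34 ± 1.62 (adjusted p = 0.157), with no overlap of groups, and Ndufaf4 by -4.10 ± 1.71 (adjusted p = 0.207) with overlap. Sdha and Cox4i1 entered the test only through the treated group and Ndufa9 and Ndufaf4 only through the controls, so that each was selected on the group in which it was high. With a pseudocount of 0.1 in place of 1, Sdha was called (adjusted p = 0.0386, background 3.25%). Ndufaf4 was called when limma-voom was run on the recovered reads (background 9.74%). Over the 14 alternatives in which Sdha was tested, its estimate ran from 1.23 to 5.41 and its limma adjusted p from 0.0386 to 0.724.

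For TSA(0-8h) against control, 6 members were tested among 2471 genes and none was called (background 0%). All 6 had lower means with TSA(0-8h), with a median log2 difference of -2.28 compared with -0.40 over all genes, but none had an unadjusted p under 0.05 (background 14.9%, with 5.5% higher and 9.39% lower) and all overlapped between groups (background without overlap 6.64% higher and 11.6% lower). Of the 6, 3 entered through the controls only. Atp5a1 differed by -2.39 ± 1.54 (SE; limma adjusted p = 0.522) and Ndufa9 by -2.74 ± 1.78 (adjusted p = 0.527).

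For TSA(0-8h)+VC(8-15h) against TSA(0-8h), 6 members were tested among 3115 genes, and again none was called (background 0%). At an unadjusted p under 0.05 there were 2 members, both higher (background 18.3%, with 16.1% higher and 2.18% lower). Sdha was higher by 2.52 ± 0.70 (SE; limma adjusted p = 0.0747) with no overlap of groups (background 18.2% higher and 3.47% lower), and Atp5b by 3.09 ± 1.36 (adjusted p = 0.240) with overlap. The comparison shares its treated embryos with the first one, so the Sdha values are not a second observation, and Sdha again entered only through the treated group. Sdha was called with a pseudocount of 0.1 (adjusted p = 0.0139, background 5.65%). It was also called when replicate 2 or replicate 3 of TSA(0-8h)+VC(8-15h) was left out (adjusted p = 0.0255 and 0.0332), and not when any other embryo was left out. Over the 14 alternatives in which Sdha was tested here, its estimate ran from 0.84 to 6.06 and its limma adjusted p from 0.0139 to 0.791. Leaving out replicate 1, 2 or 3 of TSA(0-8h)+VC(8-15h) gave 1, 3 and 2 called members, against backgrounds of 5.36%, 7.86% and 7.83% of all genes tested. Apart from Sdha, these members entered only when the treated embryo in which they were low was left out. Embryos that share a library identifier are called a sequencing pool here. In each of the 3 sequencing pools, which held 1 embryo of each of these groups, Sdha was higher with TSA(0-8h)+VC(8-15h) than in the control and the TSA(0-8h) embryo. This follows from the lack of overlap and adds nothing to it.

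**Figure D4:**
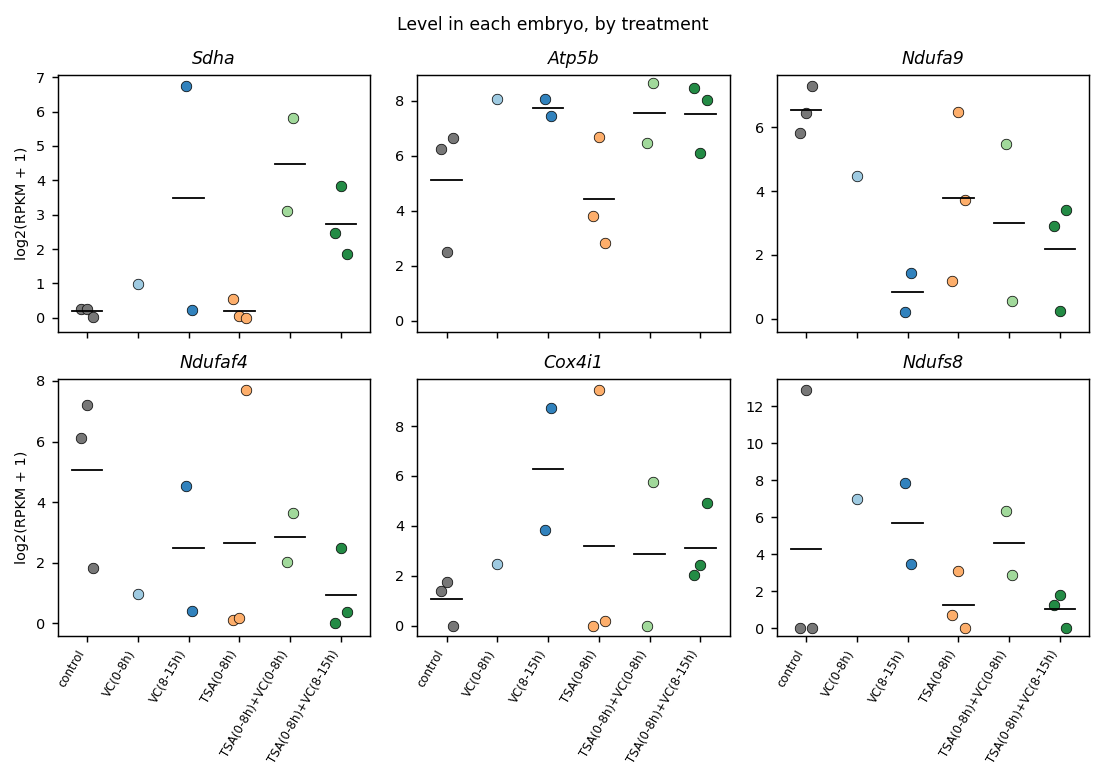
Level of Sdha, Atp5b, Ndufa9, Ndufaf4, Cox4i1 and Ndufs8 in each embryo as log2(RPKM+1), by treatment, with 1 point per embryo and a line at the group mean where a group holds more than 1 embryo. Sdha points of both combined treatments lie above all control and TSA(0-8h) points, and Ndufa9 points of all VC-treated embryos lie below the 3 control points.

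All 14 embryos were then fitted together with a term for TSA and a term for VC at either time. Here 15 members had at least 1 RPKM in 6 or more embryos and were tested among 4988 genes. None was called for TSA (background 0%) or for VC (background 0.02%, 1 gene). The TSA term had an unadjusted p under 0.05 for 1 member, Ndufs8, at -3.36 ± 1.54 (SE; limma adjusted p = 0.827; background 5.91%, with 3.19% higher and 2.73% lower). Without control replicate 2, which held its highest level, the estimate was -1.73 (adjusted p = 0.996). Of the 15 members, 12 had a negative TSA estimate and 3 a positive one. The median was -0.45, compared with 0.02 over all genes.

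For the VC term, 3 members had an unadjusted p under 0.05, 2 higher and 1 lower (background 10.1%, with 8.88% higher and 1.24% lower). Atp5b was higher by 2.93 ± 0.86 on the log2 scale (SE; limma unadjusted p = 0.00122, adjusted p = 0.197) and Sdha by 2.88 ± 1.12 (adjusted p = 0.357), while Ndufa9 differed by -2.70 ± 1.34 (adjusted p = 0.485). Of the 15 members, 13 had a positive VC estimate on the log2(RPKM+1) scale, with a median of 1.08 compared with 0.60 over all genes. How many of all genes tested had a positive estimate was not counted. The mean RPKM was higher with VC for 7 of the 15. With the sequencing pool as a further term, Atp5b was at 3.00 (adjusted p = 0.252). Within pools 1 and 3 every VC-treated embryo was above every other embryo for Atp5b, and within pool 2 one of the 4 VC-treated embryos was not.

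Whether VC(8-15h) acted differently with and without TSA was asked in the 11 embryos of the 4 groups concerned. Sdha was not tested for this difference, since fewer than 5 of the 11 embryos had it at 1 RPKM or more. Of 14 members tested among 4568 genes, none was called for this difference (background 0%), and only Atp5pb had an unadjusted p under 0.05, at -6.67 on the log2 scale (limma unadjusted p = 0.0469, adjusted p = 0.854; background 5.32%). Its values were 2.41, 1.40 and 0.455 RPKM in controls and 40.4 and 257 RPKM with VC(8-15h), compared with 7.73, 198 and 0 RPKM with TSA(0-8h) and 0, 19.0 and 6.66 RPKM with TSA(0-8h)+VC(8-15h).

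Genes that act on the chain from outside its subunits were taken from fixed lists. Of 27 further assembly genes of complexes III and IV, 25 were above 0 in some embryo, and 37.3% of gene and embryo pairs were above 0. The share was 41.8% for 14 further assembly genes of complexes I, II and V and 71.4% for 15 regulators of mitochondrial genes, such as Nrf1, Gabpa and Tfam. None of these genes, and none of the tricarboxylic acid cycle, was called in any of the 5 comparisons. For TSA(0-8h)+VC(8-15h) against control, the background at an unadjusted p under 0.05 was 17.7% of all genes tested, 14% higher and 3.76% lower. In the lists, 2 of 8 regulators tested passed, both higher, and 1 of 3 cycle genes (higher). The only assembly gene of complexes I, II and V tested also passed (higher), as did the only one of complexes III and IV tested (lower). These were, named after their values were seen, Gabpb1, a subunit of the factor GABP, at 6.07 ± 1.62 (SE; limma adjusted p = 0.111), the co-activator Pprc1 at 4.86 ± 1.61 (adjusted p = 0.113), malate dehydrogenase Mdh2 at 4.97 ± 1.83 (adjusted p = 0.150), the complex I assembly factor Acad9 at 4.13 ± 1.07 (adjusted p = 0.111) and the haem enzyme Cox10 at -3.81 ± 1.64 (adjusted p = 0.222).

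The first 4 of these genes entered the test only through the treated group. Acad9 was not tested for the VC term, and among the other 4 Mdh2 had the largest value, at 4.58 ± 1.31 (SE; limma adjusted p = 0.182). It stood at 10.9, 0.455 and 0.230 RPKM in controls and at 351, 12.2 and 140 RPKM with TSA(0-8h)+VC(8-15h), so that every treated embryo was above every control (background 15.7%). Among ribosomal protein genes, 17 of 38 tested had an unadjusted p under 0.05 for TSA(0-8h)+VC(8-15h) against control, 16 of them higher (background 17.7%, with 14% higher). The median log2 difference over the 38 was 2.78, compared with 0.78 over all genes tested. Of the 16, all but Rps15 and Rpl12 had a control embryo below 1 RPKM and entered only through the treated group. Rpl9, for one, was at 0.509, 0.402 and 0.304 RPKM in controls. These genes were thus selected on the group in which they were high.

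Promoters of the members were searched for short motifs that the rule did not use. RefSeq windows from 250 bases before to 50 after the start (GRCm38.p6, a later build than the mm9 of the values) were matched by symbol for 77 of 94 members, in 82 windows, and for 16211 of all genes, in 19811 windows. The motifs GCATGCGC of the factor NRF1, CCGGAAGT of GABP and AAGATGGC of YY1 were searched on both strands. A single run of 10 bases can hold the NRF1 motif on both strands and was then counted as 1 window. The NRF1 motif was in 15.9% of member windows and 3.70% of all windows, the YY1 motif in 13.4% and 3.18%, and the GABP motif in 6.10% and 5.37%. At least 1 motif was in 34.1% of member windows and 11.5% of all windows. By detection, the share with any motif was 39.3% in members above 0 in at least 7 embryos, 31.0% in those above 0 in 1 to 6 and 33.3% in the 12 windows of members listed at 0. In the same order, the shares were 21.4%, 16.7% and 0% for NRF1 and 10.7%, 11.9% and 25% for YY1. For GABP they were 7.14%, 4.76% and 8.33%. These shares rest on few windows and were not tested. Shown here are the 100 bases before the start of 5 members that hold a motif, from the carrier Cycs, seen in 11 embryos, to Uqcrh, listed at 0, 5′ to 3′ on the gene's strand with motif bases in capitals.
Cycs (NRF1, above 0 in 11 embryos), chr6:50566570-50566669, minus strand: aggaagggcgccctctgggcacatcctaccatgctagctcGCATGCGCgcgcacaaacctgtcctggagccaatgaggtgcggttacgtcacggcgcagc
Atp5h (GABP, above 0 in 10 embryos), chr11:115419920-115420019, minus strand: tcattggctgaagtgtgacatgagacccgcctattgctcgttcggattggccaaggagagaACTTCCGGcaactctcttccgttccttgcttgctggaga
Sdhb (NRF1, above 0 in 9 embryos), chr4:140961171-140961270, plus strand: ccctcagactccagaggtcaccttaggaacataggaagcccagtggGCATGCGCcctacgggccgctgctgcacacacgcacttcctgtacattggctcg
Atp5g2 (NRF1 on both strands, above 0 in 8 embryos), chr15:102671048-102671147, minus strand: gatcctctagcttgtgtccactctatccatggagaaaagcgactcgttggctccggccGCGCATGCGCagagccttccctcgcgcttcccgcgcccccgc
Uqcrh (GABP, listed at 0), chr4:116075071-116075170, minus strand: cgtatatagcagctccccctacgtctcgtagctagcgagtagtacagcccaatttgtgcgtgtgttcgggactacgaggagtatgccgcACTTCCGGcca
Cycs, Sdhb and Atp5g2 hold the same 8 motif bases and were highest in different embryos, Cycs at 207 RPKM in TSA(0-8h) replicate 3, Sdhb at 36.1 RPKM in TSA(0-8h)+VC(0-8h) replicate 2 and Atp5g2 at 488 RPKM in VC(8-15h) replicate 2. A match is a description of the letters and not of binding.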

How the data were processed

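RNA of 14 single embryos was amplified with the Ovation Single Cell RNA-seq System and sequenced, and per the labels and methods the authors mapped reads to mm9 with TopHat2, counted reads on exons of UCSC transcripts and deposited RPKM values, which divide those reads by the length of the transcript and the library's total. The authors used edgeR on counts, which were not used here. Transcript entries (25650, of which 25250 had a symbol) were mapped to symbols with RefSeq GRCm38.p6 and summed per gene, 100 entries giving the 94 members. Coordinates and lengths are those of the mm9 annotation.

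Since 1 read sets the step between low RPKM values, library totals and reads per entry could be worked back. The reads of an entry are known only up to a factor common to all embryos. The smallest whole counts were taken, so some may be too low. Among 14532 entries seen in at least 2 embryos, 14531 came out as whole numbers (tolerance 0.0001) and the recovered reads summed to 100.2% to 100.7% of the totals. The recovery and the fits were tested on simulated data. RPKM fits used limma 3.58.1 in R 4.3.3 (lmFit, eBayes with a trend) on log2(RPKM+1), which understates the change of low genes, with Benjamini-Hochberg adjustment over all genes tested and a threshold of 0.05. Genes were tested where every embryo of at least one of the groups had 1 RPKM or more, or 6 of 14 embryos for the joint fit (5 of 11 for the difference of VC(8-15h) effects, which was added after the data were seen). The members, lists and tests were chosen with earlier results of these data known. Named genes were the 3 highest of each complex and of the complex I assembly factors, all Sdh genes, Cycs, isoform pairs, members listed at 0 and, per comparison, up to 3 per direction with the smallest p-values and, for pairs, no overlap of groups. Other members are given as examples of a range or as stated. Groups came from the labels, and sequencing pools were inferred from the library identifiers, since the sample labels used here name no pool or batch. Figures were drawn with matplotlib 3.10.9. Floors in reads cover counting error only, and amplified reads are not independent molecules.

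Same-numbered embryos did not deviate together (correlations 0.00288 to 0.0465), so the numbers were not taken as pairs. The alternatives were another pseudocount, filters, scalings, limma without a trend, limma-voom on recovered reads, leaving out each embryo, a replicate block and a pool term.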

Additional observations from a re-analysis of the deposited data

How the results depend on the processing

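For TSA(0-8h)+VC(8-15h) against control, 0 members were called, and 1 with a pseudocount of 0.1 (Sdha) and 1 with limma-voom on recovered reads (Ndufaf4). For TSA(0-8h)+VC(8-15h) against TSA(0-8h), 0 were called, 1 with a pseudocount of 0.1 (Sdha), and 0 to 3 when 1 embryo was left out: without TSA(0-8h)+VC(8-15h) replicate 1 it was 1 (Cox7c), without replicate 2 it was 3 (Ndufv3, Atp5g2 and Sdha) and without replicate 3 it was 2 (Sdha and Sdhb). In these 3 fits 201, 295 and 288 genes in all were called. Fewer embryos let more members pass the filter, 11, 8 and 14 in place of 6. Cox7c, Ndufv3, Atp5g2 and Sdhb had 0, 0, 2 and 2 recovered reads in the embryo left out. Each entered the test only without that embryo, through the treated embryos in which it was high. The calls for TSA(0-8h) against control and for both terms of the joint fit were 0 under every alternative run. With the replicate block, 0 members were called in each of the 3 comparisons, as without it, and the adjusted p of Sdha was 0.131 against control and 0.0507 against TSA(0-8h). Calls over all genes moved more, from 0 in each of these comparisons to 107, 99 and 176 with a pseudocount of 0.1, to 183, 107 and 213 with a minimum of 5 RPKM, to 321, 1 and 286 with limma-voom and to 7, 5 and 168 with the replicate block, and the cause was not tested. The log2 ratios of the summed level, -1.60, -1.82 and 0.23, ran from -2.11 to -0.95, from -2.42 to -1.17 and from -0.23 to 0.82 when 1 embryo was left out, and the first 2 became 0.27 and -0.14 with the mean of log2(RPKM+1).

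Embryos of a group differed widely, with a median residual SD of 1.80 on the log2 scale over all genes in the first comparison, and at most 8 members entered a pairwise comparison, so most of the 94 members have values but no test. A p that misses the threshold does not show that a member did not differ.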
